A study of Mus musculus with 6 samples.

Results

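The proteasome genes were taken as every row of the deposited expression table whose symbol starts with Psm, a letter from a to g and a number, with symbols marked -ps left out, which removed 2 pseudogenes. This gave 49 of the 19086 genes listed. They comprise the 7 alpha ring genes and 10 beta ring genes of the core particle, 17 genes of the regulatory particle, 7 assembly factors, 6 activators or regulators and Psma8, which replaces Psma7 in the testis form of the particle. The rule also picks up Psmc3ip, which acts in meiotic recombination and encodes no proteasome subunit, so that 48 members are proteasome genes.

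RNA was sequenced from haematopoietic stem cells (HSCs), isolated as the CD150+ CD48- part of LSK (lineage-negative Sca-1+ Kit+) bone marrow. The donors were C57BL/6 mice carrying CD45.2, either Zfp521fl/fl, the floxed control, or Zfp521-CKO, whose HSCs are called Zfp521-deficient (Zfp521 encodes a zinc finger protein), and their marrow had been given to lethally irradiated CD45.1 recipients 2 months earlier. Each genotype had 3 libraries, and both groups share irradiation and transplantation. The labels name neither the Cre driver nor the age of the mice, nor is it said that libraries stem from different recipient mice. A p-value therefore reflects only how far these libraries vary, possibly for technical reasons. The stated aim was to derive genes that are higher in HSCs deficient in Zfp521.

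The proteasome degrades proteins tagged with ubiquitin. Its core particle is a barrel of paired alpha and beta rings with the active sites of 3 beta subunits inside, and its regulatory particle binds ubiquitin chains, removes them and threads the substrate into the barrel with a ring of ATPases. In cells of the immune system, and in others after interferon gamma, the catalytic subunits encoded by Psmb5, Psmb6 and Psmb7 can be replaced by those of Psmb8, Psmb9 and Psmb10, which gives the immunoproteasome, a source of peptides for MHC class I. HSCs keep a low rate of protein synthesis and are sensitive to a load of misfolded protein, which is cleared in part by the proteasome.

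Values below are those deposited, on a log2 scale: reads divided by 1 factor for each library, plus a pseudocount of 1. Whole reads were recovered from them. The 3 controls held 10689480, 7396932 and 7467901 reads in order of replicate number, and the libraries labelled Zfp521-CKO (the CKO-labelled libraries) 56237262, 30698602 and 3137596, a 17.9-fold range. Zfp521 itself had 0, 3 and 0 reads in the controls versus 1519, 126 and 0 in the CKO-labelled libraries. The groups overlapped (two-sided exact permutation p = 0.4, n = 3 each, smallest possible 0.1). Almost all of these reads came from CKO-labelled replicates 1 and 2, the deepest libraries. The level of the targeted gene thus does not bear out the labels, and each direction below is one between labels. The counts hold no position within the gene, so whether a part of it was deleted could not be seen. The 15 neutrophil markers took 12.5% to 15.1% of reads in the controls versus 0.036%, 1.45% and 12.8% in CKO-labelled replicates 1, 2 and 3. The 12 HSC markers took 0.0088%, 0.143% and 0.0149% of reads in the controls versus 0.143%, 0.157% and 0.0242% in the CKO-labelled libraries, ranges that overlap. Reads were found for 7 of them in each control, with Procr, Slamf1 and Fgd5 at 0 in all 3, and for 12, 11 and 8 in the other group, where Slamf1 was at 0 in replicates 2 and 3 and Fgd5 in replicate 3. Ly6a alone gave most of the HSC marker reads in Zfp521fl/fl replicate 2 (9291, with Meis1 next at 518). The same held in CKO-labelled replicate 3 (714, with Mecom next at 24). The 10 monocyte and macrophage markers took 0.30% to 0.82% in the controls versus 0.11% to 0.85% in the other group, and the matched erythroid, megakaryocyte, B cell and T cell markers each took under 1% of the reads in every library. In bulk samples, fewer cells of a type and less RNA per cell cannot be told apart.

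Proteasome genes were detected more completely in CKO-labelled replicates 1 and 2 than in the other 4 libraries. Reads were found for 46, 39 and 36 of the 49 members in Zfp521fl/fl replicates 1, 2 and 3, and for 49, 48 and 40 in the CKO-labelled libraries. Counted at 1 read per 1000000 or more, the numbers were 41, 32 and 31 in the controls versus 49, 48 and 34 in the other group. As a share this was 63.3% to 83.7% of members in the controls versus 69.4% to 100% in the CKO-labelled libraries, against 20.8% to 39.1% and 25.3% to 68.0% of all genes listed. The order of the libraries among members was close to that among all genes, with CKO-labelled replicate 1, CKO-labelled replicate 2 and Zfp521fl/fl replicate 1 leading, in that order, by both measures. The leading pair are also the deepest libraries and those with the smallest share of neutrophil markers, and the part of either in the result was not tested.

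Reads in all 6 libraries were found for 30 of the 49 members (61.2%), compared with 16.5% of all genes. These 30 include 16 of the 17 core particle genes, Psmb10 being the exception, all 6 ATPases, 4 of the other 11 genes of the regulatory particle, Psme1, Psme2, Psme2b and, of the assembly factors, only Psmg3. Nearly all core particle genes thus had reads in every library, while most assembly factors did not.

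**Figure D1:**
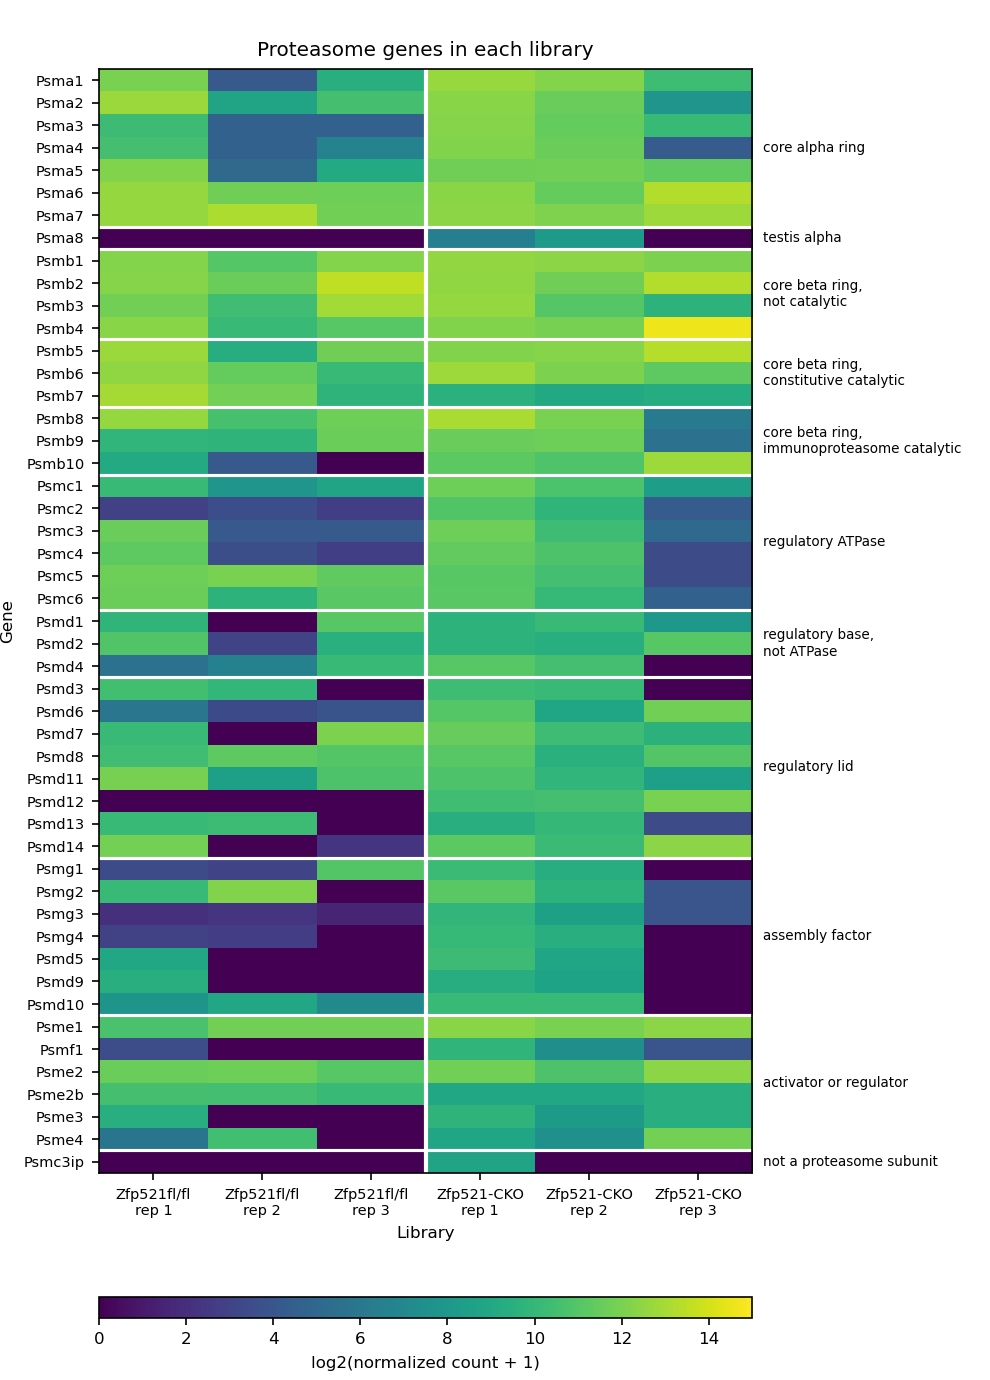
Deposited log2(normalized count + 1) of each of the 49 members (rows, grouped by subcomplex) in each library (columns, Zfp521fl/fl on the left and Zfp521-CKO on the right). Colour runs from 0 (dark) to 15 (yellow). The lowest member is at 6.503 in CKO-labelled replicate 1, and Psmc3ip is the only member at 0 in replicate 2, while each of the other 4 libraries has members at 0 beside members above 12.

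Together the 49 members took 1.03%, 0.40% and 0.51% of reads in the controls versus 1.54%, 0.94% and 0.78% in the CKO-labelled libraries. The ranges overlap, since Zfp521fl/fl replicate 1 lies above CKO-labelled replicates 2 and 3. The difference of the means was 0.44 percentage points. It was 0.21 without CKO-labelled replicate 1, the deepest library, and 0.63 without Zfp521fl/fl replicate 1. The share of reads taken by the 10 most abundant genes of a library moved as well, from 27.8% to 43.8% in the controls and from 6.94% to 39.5% in the other group. With those genes left out of the total, the members took 1.48%, 0.55% and 0.90% in the controls versus 1.66%, 1.15% and 1.28% in the CKO-labelled libraries.

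**Figure D2:**
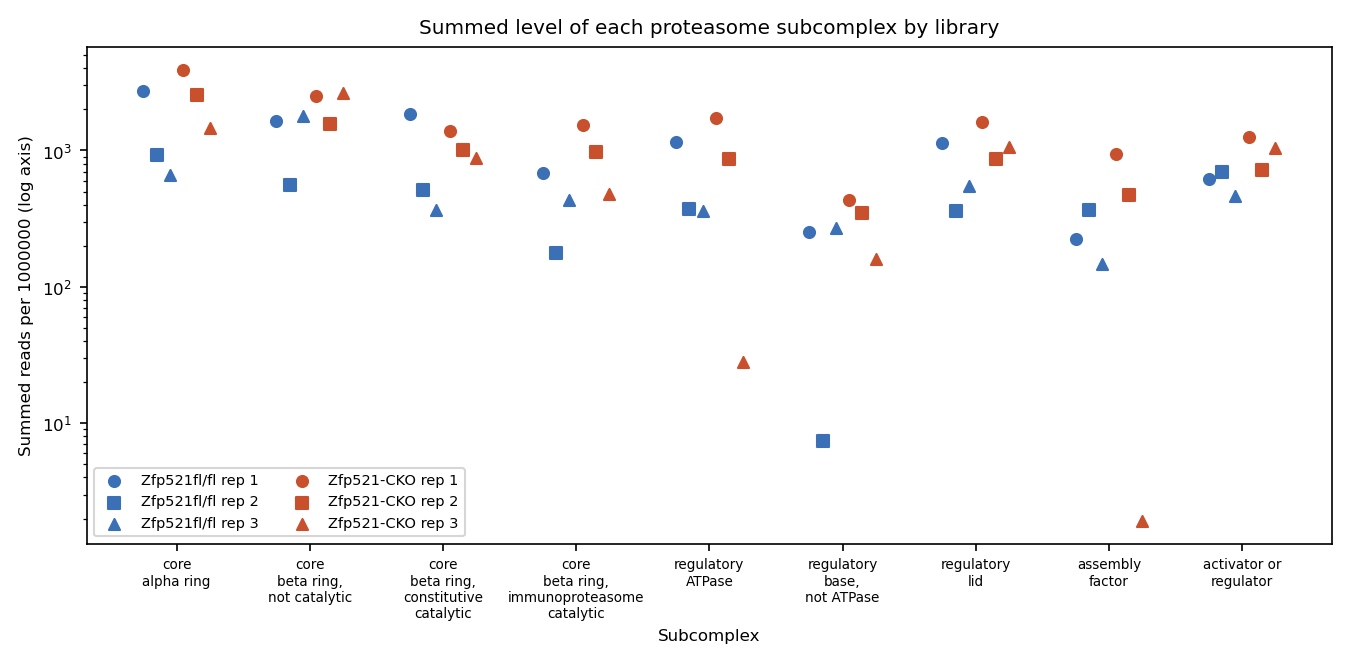
Summed reads per 1000000 (vertical, log axis) of the genes of each subcomplex (horizontal), with 1 point per library, blue for Zfp521fl/fl and orange for Zfp521-CKO, and a marker shape per replicate number. CKO-labelled replicate 3 lies far below the other libraries for the ATPases (28) and the assembly factors (1.91), and Zfp521fl/fl replicate 2 for the remaining base subunits (7.44).

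None of the 49 members passed the test between the genotypes. With limma on the deposited log2 values and Benjamini-Hochberg adjustment over all 16436 genes tested, 0 members and 0 genes in all (0%) had an adjusted p under 0.05, and the smallest adjusted p of a member was 0.61. At an unadjusted p under 0.05, 6 members were higher and 0 lower in the CKO-labelled libraries, where the background was 5.09% of genes higher and 0.493% lower. Means were higher in that group for 35 of the 49 members, or 71.4%, close to the 73.6% of all genes. The median difference over the members was 1.35 log2 units, compared with 1.63 over all genes tested. This order depended on the setting. Under quantile normalization the members' median was 1.39 and that of all genes 0.22, and in reads per 1000000 they were 1.59 and 0.91. Median-ratio scaling kept the order. Among genes with reads in all 6 libraries the medians were 0.60 and 0.032, and without CKO-labelled replicate 3 they were 2.93 and 2.64. The members' median was also higher with no filter, weights per library, voom or Zfp521fl/fl replicate 1 left out. It stayed lower with any other library left out.

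The groups did not overlap for 10 members. Every CKO-labelled library lay above every control for 7 of 49, Psmb10, Psmc2, Psmd6, Psmd12, Psme1, Psmf1 and Psmg3, against a background of 7.17% of genes. Each lay below every control for 3 of 49, Psmb7, Psmc5 and Psme2b, against 2.05%. Rescaled to reads per 1000000, the same 7 stayed above (background 7.71%), but only Psme2b stayed below (background 1.47%), since the groups then overlapped for Psmb7 and Psmc5. Among genes with reads in all 6 libraries, 4 of 30 members lay above every control (background 8.41%) and 3 of 30 below (background 7.13%).

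**Figure D3:**
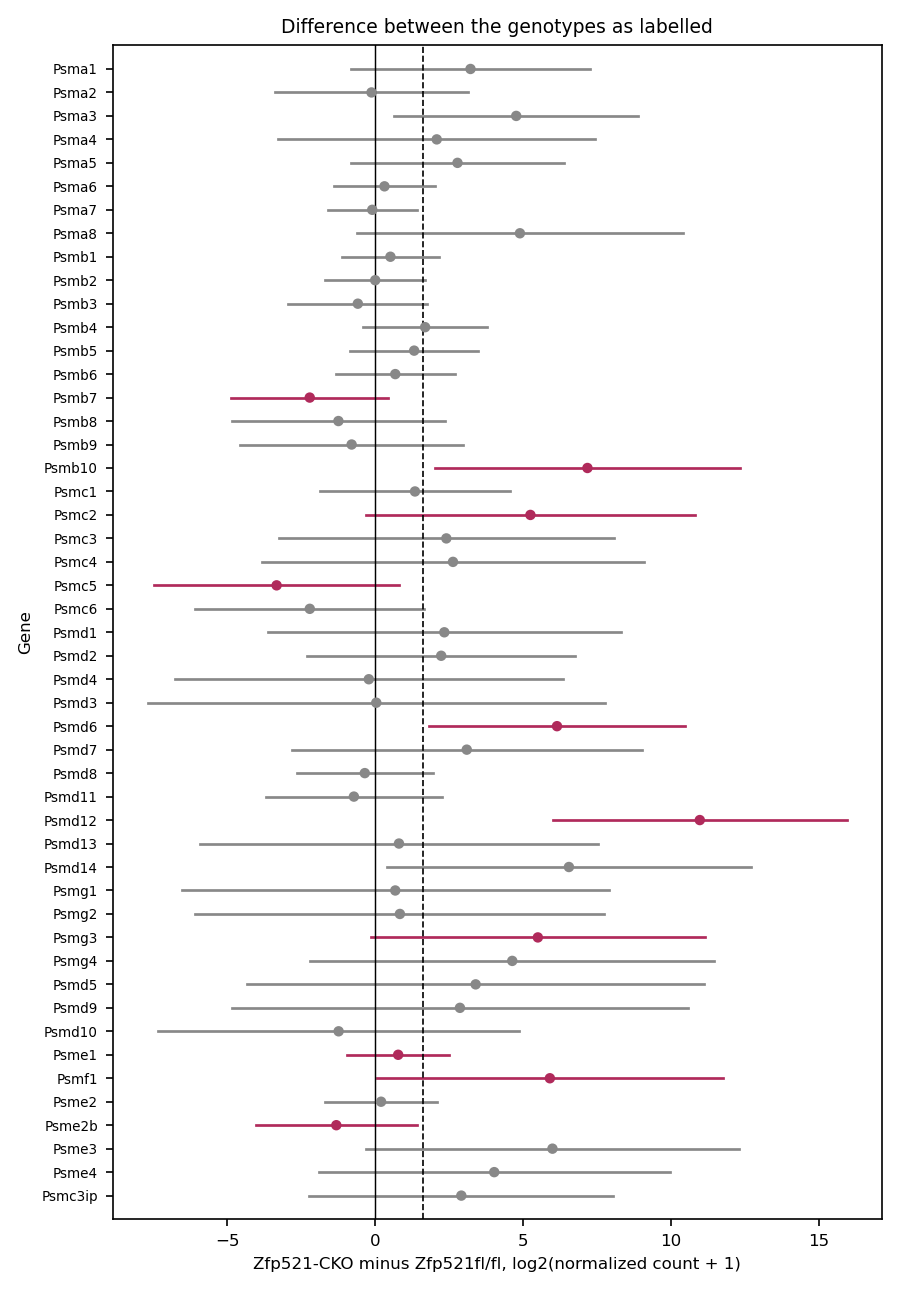
Difference of group means, Zfp521-CKO minus Zfp521fl/fl, in log2(normalized count + 1) (horizontal) for each of the 49 members (vertical), with bars for limma's 95% interval. Magenta marks the 10 members whose groups do not overlap, the solid line is 0 and the dashed line is the median over all genes tested, 1.63. Intervals of most members span 0, and that of Psmd12 lies farthest to the right.

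The alpha ring forms the gate through which substrates enter the barrel and is the first part of the core to assemble. Psma7 and Psma6 were high in every library. Psma7 was at 12.63, 13.15 and 11.81 in the controls and at 12.37, 12.11 and 12.80 in the CKO-labelled libraries. Psma6 was at 12.63, 11.76 and 11.70 and at 12.34, 11.45 and 13.24. Groups overlapped for both genes. Psma2 was at 12.73, 8.78 and 10.60 in the controls and at 12.34, 11.59 and 7.81 in the other group, so the lowest value was that of CKO-labelled replicate 3.

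Each of the other alpha genes was low in at least 1 library. Psma1 was at 11.98, 4.18 and 9.40 in the controls, where 4.18 stands for 9 reads, and at 12.70, 12.19 and 10.33 in the CKO-labelled libraries. Psma3 was at 10.30, 4.68 and 4.63 in the controls and at 12.29, 11.44 and 10.18 in the other group. Its difference of 4.77 ± 1.88 (limma SE) was the largest of the alpha ring, with an unadjusted p of 0.027 and an adjusted p of 0.61, and the groups overlapped through Zfp521fl/fl replicate 1. Psma4 was at 10.55, 4.68 and 6.67 in the controls and at 12.17, 11.62 and 4.35 in the CKO-labelled libraries, the last being 4 reads. Psma5 was at 12.16, 5.21 and 9.18 against 11.76, 11.79 and 11.34. Zfp521fl/fl replicate 2 was thus low for Psma1, Psma3, Psma4 and Psma5 together.

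The 7 alpha subunits enter the ring in equal number, and on a per-length scale, reads per 1000000 per 1000 coding bases, their levels could be set beside each other. In CKO-labelled replicate 1 these levels ran from 530 to 935, and in replicate 2 from 380 to 620. Zfp521fl/fl replicate 1 ran from 145 to 850. The remaining libraries spanned far more, from 1.54 to 869 in Zfp521fl/fl replicate 2, from 2.10 to 326 in replicate 3 and from 1.63 to 862 in CKO-labelled replicate 3. The standard deviation of the log2 values over the 7 genes was 0.28 and 0.30 in CKO-labelled replicates 1 and 2, 1.02 in Zfp521fl/fl replicate 1, and 2.65 to 3.74 in the other 3 libraries. The spread was thus widest in the 3 shallowest libraries, and the part of depth in it was not tested.

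**Figure D4:**
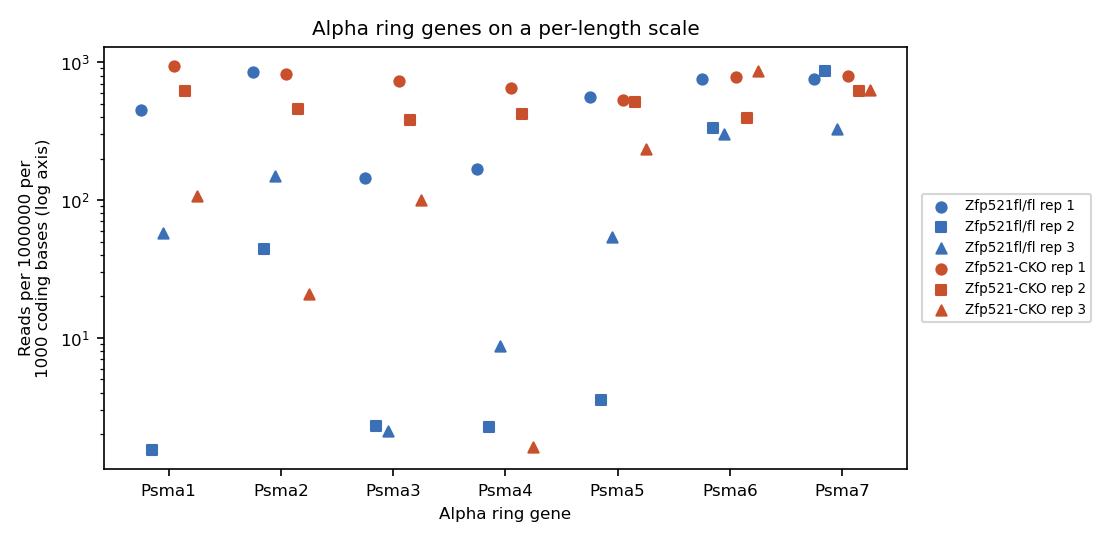
Reads per 1000000 per 1000 coding bases (vertical, log axis) of the 7 alpha ring genes (horizontal), 1 point per library, blue for Zfp521fl/fl and orange for Zfp521-CKO. The points of CKO-labelled replicates 1 and 2 keep between 380 and 935 for all 7 genes, while 3 other libraries reach down to about 2 for some genes and over 300 for others.

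Psma8, the alpha subunit of the testis particle, had no reads in the controls versus 558, 928 and 0 reads in CKO-labelled replicates 1, 2 and 3. As a level this was 9.92 and 30.2 reads per 1000000 in replicates 1 and 2. A count of 0 allows up to 3 reads, which is 0.28 to 0.41 reads per 1000000 in the controls versus 0.96 in CKO-labelled replicate 3. Floors and intervals here account for counting error alone, since PCR copies do not represent separate molecules.

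The 4 beta subunits without an active site, which shape the ring, were present in all 6 libraries. Psmb1 had the narrowest range, at 12.22, 11.06 and 12.20 in the controls versus 12.59, 12.41 and 12.01 in the CKO-labelled libraries. Psmb2 was at 12.29, 11.63 and 13.56 and at 12.50, 11.73 and 13.25, with group means that were nearly equal. Psmb3 was at 11.82, 10.42 and 12.90 and at 12.60, 11.07 and 9.71. Psmb4 reached the highest value of any member, 14.65 in CKO-labelled replicate 3, which is 5270 of its 3137596 reads. Its other values were 12.36, 10.19 and 11.12 in the controls versus 12.16 and 11.93 in replicates 1 and 2. Groups overlapped for all 4 genes.

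Among the constitutive catalytic subunits, Psmb5 carries the chymotrypsin-like site, the main target of bortezomib. It was at 12.74, 9.33 and 11.75 in the controls and at 12.16, 12.26 and 13.34 in the CKO-labelled libraries, a difference of 1.32 ± 0.98 (limma SE, adjusted p = 0.67) with groups that overlapped. Psmb6, with the caspase-like site, was at 12.51, 11.46 and 10.15 and at 12.81, 12.05 and 11.29, a difference of 0.68 ± 0.92. Psmb7, with the trypsin-like site, went the other way. Its values were 13.01, 11.88 and 9.75 in the controls versus 9.57, 9.12 and 9.31 in the other group, a difference of -2.21 ± 1.21 (limma adjusted p = 0.61). The libraries labelled Zfp521-CKO were close together and just below the lowest control. In reads per 1000000 the controls were at 726, 269 and 58.0 and the others at 84.0, 58.0 and 41.4, so on that scale 1 control lay within the range of the other group.

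The immunoproteasome subunits did not share a single pattern over the libraries. Psmb8 (LMP7), the counterpart of Psmb5, was at 12.61, 10.65 and 11.67 in the controls and at 13.08, 12.01 and 6.11 in the CKO-labelled libraries, where 6.11 stands for 14 reads. Psmb9 (LMP2), the counterpart of Psmb6 and a neighbour of Psmb8 in the MHC region, was at 9.86, 9.76 and 11.65 and at 11.55, 11.71 and 5.63, where 5.63 stands for 10 reads. Both were therefore lowest in CKO-labelled replicate 3 and inside or above the control range in replicates 1 and 2. The difference of means was -1.24 for Psmb8 and -0.80 for Psmb9, and without CKO-labelled replicate 3 it was 0.90 and 1.2 (limma adjusted p = 0.50 and 0.45).

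Psmb10 (MECL1), the counterpart of Psmb7, was at 9.19, 4.18 and 0 in the controls, which are 549, 9 and 0 reads. In the CKO-labelled libraries it was at 11.20, 10.87 and 12.82, which are 14656, 6005 and 1492 reads. Each of these lay above the highest control, and the highest came from the shallowest library, in which Psmb8 and Psmb9 had 14 and 10 reads. The difference was 7.18 ± 2.35 log2 units (limma SE, 95% interval 2.01 to 12.35, unadjusted p = 0.011, adjusted p = 0.61). It was 4.95 to 9.54 when any 1 library was left out. A difference taken from 0 reads depends on the pseudocount, and 3 reads would be a log2 value of 2.80 in Zfp521fl/fl replicate 3.

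Within a library, the reads of each inducible subunit could be set against those of the subunit it replaces. Psmb8 made up 47.8%, 71.4% and 48.6% of the reads of Psmb8 plus Psmb5 in the controls versus 65.3%, 45.7% and 0.65% in the CKO-labelled libraries. Psmb9 made up 13.8%, 23.6% and 74.0% of Psmb9 plus Psmb6 in the controls versus 29.4%, 44.0% and 1.91% in the other group. For Psmb10 against Psmb7 the groups were apart: 6.61% (95% exact binomial interval 6.08 to 7.17), 0.45% (0.21 to 0.85) and 0% (0 to 0.85) in the controls, and 75.6% (75 to 76.2), 77.1% (76.2 to 78.1) and 92.0% (90.6 to 93.3) in the CKO-labelled libraries. Dividing by coding length left these last shares at 0% to 6.70% and 75.9% to 92.1%. The pair was singled out after its values were seen, and no test is given for it. With the 3 pairs summed, the immunoproteasome share was 27.1%, 25.6% and 54.4% in the controls versus 52.8%, 49.0% and 35.3% in the other group, and these ranges overlap.

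**Figure D5:**
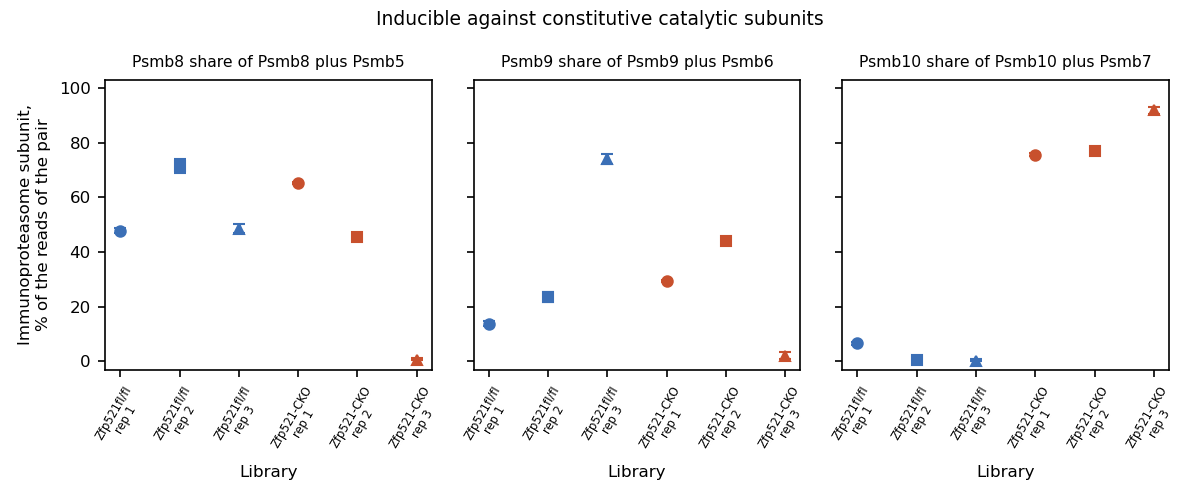
Share of reads of the inducible subunit in each catalytic pair (vertical, percent), by library (horizontal), blue for Zfp521fl/fl and orange for Zfp521-CKO, with bars for the exact 95% binomial interval, which covers counting error only. Shares of Psmb8 and Psmb9 overlap between the groups and are near 0 in CKO-labelled replicate 3, while those of Psmb10 are at most 6.61% in the controls and at least 75.6% in the other group.

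The promoters of these 3 inducible genes are shown because Psmb8 and Psmb9 were lowest in CKO-labelled replicate 3, where Psmb10 was highest. Each window is from RefSeq on GRCm38.p6, runs from 250 bases before to 50 after the start of the gene, and is printed 5′ to 3′ on the strand of the gene. Capitals mark matches, on either strand, to an antioxidant response element (TGACNNNGC or TGAGNNNGC), which NRF1 and NRF2 bind, to the core of an interferon-stimulated response element (GAAA, 2 bases of any kind and GAAA), to CCAAT or to TATAAA.
Psmb8, chr17:34197945-34198244, plus strand: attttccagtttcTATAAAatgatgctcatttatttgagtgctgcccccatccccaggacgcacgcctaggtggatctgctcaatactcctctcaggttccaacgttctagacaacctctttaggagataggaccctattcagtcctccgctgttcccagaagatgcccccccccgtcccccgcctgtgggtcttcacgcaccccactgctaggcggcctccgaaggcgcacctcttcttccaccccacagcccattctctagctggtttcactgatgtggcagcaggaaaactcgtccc
Psmb9, chr17:34187281-34187580, minus strand: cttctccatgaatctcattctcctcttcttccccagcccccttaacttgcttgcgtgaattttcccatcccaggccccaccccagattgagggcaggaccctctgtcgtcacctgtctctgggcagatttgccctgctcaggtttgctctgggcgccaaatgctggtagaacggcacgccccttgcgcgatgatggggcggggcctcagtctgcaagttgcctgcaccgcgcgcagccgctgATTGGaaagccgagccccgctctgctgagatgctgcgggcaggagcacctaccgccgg
Psmb10, chr8:105938343-105938642, minus strand: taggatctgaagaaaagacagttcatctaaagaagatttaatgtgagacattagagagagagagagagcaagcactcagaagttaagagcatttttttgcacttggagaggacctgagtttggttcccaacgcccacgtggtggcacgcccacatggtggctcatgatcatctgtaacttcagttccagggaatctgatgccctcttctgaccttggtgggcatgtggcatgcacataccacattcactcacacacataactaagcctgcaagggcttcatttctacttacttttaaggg
The Psmb8 window holds a TATAAA match that starts 237 bases before the gene, and that of Psmb9 a CCAAT match on the opposite strand 8 bases before it. In the Psmb10 window none of the motifs was matched.

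Of the 49 members, 41 had a promoter in the RefSeq table, with 44 windows in all. TGACNNNGC was matched in 6 windows (13.6%), compared with 12.4% of all 32851 promoters in the table. The 6 genes are Psmb5, Psmb6, Psmc6, Psmd9, Psmd12 and Psme4. TGAGNNNGC was matched in 14 windows (31.8%), compared with 17.6% of all promoters, the interferon element core in 5 (11.4% against 3.44%), CCAAT in 14 (31.8% against 37.4%) and TATAAA in 4 (9.09% against 13.6%). A match describes letters in the window and not binding.

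The 6 ATPases unfold the substrate, and each occupies 1 position of the hexameric ring. Psmc1 was at 10.19, 7.82 and 8.74 in the controls and at 11.67, 10.75 and 8.37 in the CKO-labelled libraries. Psmc2 was at 2.88, 3.63 and 2.80 in the controls, which are 6, 6 and 3 reads, and at 10.90, 9.80 and 4.35 in the other group, the last being 4 reads. Psmc2 thus stood apart from the controls mainly through 2 libraries. In the shallowest library, 4 reads already give a log2 value of 4.35, while 6 reads gave 2.88 in the deepest control. Without CKO-labelled replicate 3 its difference was 7.25 instead of 5.25, with a limma adjusted p of 0.028 instead of 0.61. In that setting 15.2% of all genes tested passed as higher.

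Psmc3 and Psmc4 were high in Zfp521fl/fl replicate 1, at 11.55 and 11.30, as in CKO-labelled replicates 1 and 2, at 11.68 and 10.36 and at 11.37 and 10.82. In the other 3 libraries they had 2 to 9 reads each. Psmc6 was at 11.64, 9.72 and 11.16 in the controls and at 11.15, 10.07 and 4.66 in the other group. Psmc5 was the steadiest ATPase among the controls, at 11.70, 12.00 and 11.32, and was at 11.08, 10.52 and 3.42 in the CKO-labelled libraries. Its difference was -3.33 ± 1.89 log2 units (limma adjusted p = 0.61), and -0.88 without CKO-labelled replicate 3, in which it had 2 reads.

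As a ring, the ATPases summed to 1163, 370 and 358 reads per 1000000 in the controls and to 1719, 865 and 28 in the CKO-labelled libraries. Replicate 3 held 88 reads of all 6 genes together. As a sum, core particle genes were not low in that library, with 5466 reads per 1000000 against 2183 to 6885 in the controls. The 8 lid genes summed to 1066 against 362 to 1135. Psmb4 alone gave 5270 of the 17151 core particle reads of that library. Single core genes went both ways there: Psma2, Psma4, Psmb3, Psmb8 and Psmb9 had their lowest value of all 6 libraries, and Psma6, Psmb4, Psmb5 and Psmb10 their highest.

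The rest of the base holds the scaffolds Psmd1 and Psmd2 and the ubiquitin receptor Psmd4. Psmd1 was at 9.80, 0 and 11.08 in the controls and at 9.72, 10.16 and 8.02 in the CKO-labelled libraries. Psmd2 was at 10.92, 3.10 and 9.53 and at 9.69, 9.45 and 11.10. Psmd4 was at 5.58, 6.61 and 10.13 and at 11.12, 10.55 and 0. Each of these genes had 1 library with 0 to 4 reads, in 2 cases Zfp521fl/fl replicate 2, and the groups overlapped for all 3.

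In the lid, Psmd12 was the member with the largest difference. It had no reads in any control and was at 10.40, 10.57 and 11.96 in the CKO-labelled libraries, which are 8405, 4860 and 822 reads, or 149, 158 and 262 per 1000000. The lowest of these is at least 368.5-fold higher than the 3 reads that a count of 0 allows. This floor is taken per library, in the control where it is highest. Psmd12 (ENSMUSG00000020720) had an unadjusted limma p of 5.0e-04 and an adjusted p of 0.61. It passed in limma without CKO-labelled replicate 3 (adjusted p = 0.0083), with weights per library (0.047) and with voom on the recovered reads (0.015). In these settings 15.2%, 9.93% and 0.894% of all genes tested passed as higher. Of the 16436 genes tested, 1178 lay above every control as Psmd12 did. The subunit is a structural part of the lid, whose other genes had reads in at least 1 control.
Psmd12, chr11:107479278-107479577, plus strand: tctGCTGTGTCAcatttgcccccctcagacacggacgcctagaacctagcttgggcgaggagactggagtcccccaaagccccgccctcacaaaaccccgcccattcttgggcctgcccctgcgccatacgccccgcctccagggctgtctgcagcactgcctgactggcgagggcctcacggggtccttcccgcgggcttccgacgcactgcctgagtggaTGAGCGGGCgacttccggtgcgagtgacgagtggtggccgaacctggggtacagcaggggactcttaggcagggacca
This promoter is shown for that difference. Its capitals mark a TGACNNNGC match on the opposite strand 247 bases before the gene and a TGAGNNNGC match 28 bases before it, and with Psmc6 it was 1 of 2 members with both forms of the element.

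Psmd6, another lid subunit, was low in the controls, at 5.92, 3.39 and 3.90, and was at 11.02, 8.81 and 11.82 in the CKO-labelled libraries. In reads per 1000000 this was 5.24, 0.68 and 0.94 against 230, 46.8 and 236. The difference was 6.15 ± 1.97 log2 units (limma SE, unadjusted p = 0.0096, adjusted p = 0.61), and it was 5.51 to 7.02 with any 1 library left out. Psmd14, the deubiquitinase of the lid that cuts the chain from the substrate, was at 11.89, 0 and 2.31 in the controls and at 11.20, 10.25 and 12.41 in the other group. Zfp521fl/fl replicate 1 lay inside the range of the CKO-labelled libraries, and the difference was 6.55 ± 2.79 (unadjusted p = 0.039, adjusted p = 0.61 in limma).

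The remaining lid genes did not separate the groups. Psmd8 was steady, at 10.42, 11.29 and 10.99 in the controls versus 11.11, 9.55 and 11.00 in the CKO-labelled libraries. Psmd11, whose level in human embryonic stem cells is linked to their proteasome activity, was at 11.94, 8.55 and 10.82 and at 10.80, 9.88 and 8.48. Psmd3 was at 10.46, 9.93 and 0 and at 10.35, 10.15 and 0, so that 1 library of each group had no reads. The next genes likewise overlapped between the groups, each with 1 control at 0. Psmd7 was at 10.17, 0 and 12.06 and at 11.52, 10.34 and 9.67. Psmd13 was at 10.18, 10.26 and 0 and at 9.44, 9.999 and 3.42.

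Assembly factors are chaperones that leave before the particle is complete. Psmg1 and Psmg2 form a dimer, as do Psmg3 and Psmg4, and both dimers act on the alpha ring, while Psmd5, Psmd9 and Psmd10 (gankyrin) act on the base. Psmg3 was at 2.07, 2.26 and 1.58 in the controls, which are 3, 2 and 1 reads, and at 9.90, 8.55 and 3.96 in the CKO-labelled libraries, the last being 3 reads. Psmg4 was at 2.88, 2.74 and 0 in the controls and at 10.07, 9.46 and 0 in the other group. Both were at 6 reads or fewer in every library except CKO-labelled replicates 1 and 2, as were Psmc2 and Psma8, which are no part of this dimer. The difference of Psmg3 was 5.5 ± 2.57 (limma adjusted p = 0.61), and 7.25 without replicate 3 of that group (limma adjusted p = 0.019). Without that library 15.2% of all genes tested passed as higher.

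Each gene of the first dimer was high in at least 1 control. Psmg1 was at 3.40, 3.10 and 11.00 in the controls and at 10.21, 9.33 and 0 in the CKO-labelled libraries, and Psmg2 at 10.14, 12.18 and 0 and at 11.17, 9.69 and 3.96. Where Psmg1 was high among the controls, Psmg2 had no reads. Psmd10 was at 7.76, 9.01 and 7.17 and at 10.10, 10.12 and 0. Psmd5 and Psmd9 had reads in 1 control only, replicate 1, at 8.93 and 9.45, and were at 10.28 and 8.84 and at 9.37 and 8.68 in CKO-labelled replicates 1 and 2, with 0 in replicate 3. All 7 assembly factors together had 6 reads in that library, 1.91 per 1000000, against 148 to 368 in the controls versus 942 and 473 in the other 2 libraries of its group.

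Psme1 and Psme2 encode the alpha and beta subunits of PA28, an activator induced by interferon gamma that caps the core in place of the regulatory particle. Psme1 was at 10.72, 11.81 and 11.80 in the controls and at 12.31, 11.97 and 12.38 in the CKO-labelled libraries. All of the latter lay above the former, by a mean of 0.78 ± 0.79 log2 units (limma SE, 95% interval -0.96 to 2.51, adjusted p = 0.67). The gap between the highest control and the lowest library of the other group was small, while in reads per 1000000 it was wider, with 149, 256 and 241 against 563, 419 and 350. Psme2 was at 11.61, 11.69 and 11.09 and at 11.82, 10.79 and 12.39, with groups that overlapped.
Psme1, chr14:55578244-55578543, plus strand: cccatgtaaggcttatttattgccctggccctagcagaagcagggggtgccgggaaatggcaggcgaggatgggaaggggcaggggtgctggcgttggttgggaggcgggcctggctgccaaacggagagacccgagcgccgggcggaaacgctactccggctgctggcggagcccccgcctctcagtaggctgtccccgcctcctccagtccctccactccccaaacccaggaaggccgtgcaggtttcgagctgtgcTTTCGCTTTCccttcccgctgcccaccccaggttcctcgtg
The Psme1 promoter is shown because, of the activator genes with a window in the table, Psme1 was the only one with the interferon element core. The match, on the opposite strand, starts 9 bases after the start of the gene.

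Psme2b, a copy of Psme2 elsewhere in the genome, was lower in the CKO-labelled libraries. It was at 10.56, 10.51 and 10.16 in the controls and at 8.99, 8.92 and 9.38 in the other group, and the groups did not overlap on either scale. The difference was -1.31 ± 1.24 log2 units (limma adjusted p = 0.67), and it kept between -1.46 and -1.23 with any 1 library left out. Reads of the copy and of Psme2 can be hard to tell apart, and how the counting treated them is not given in the sources used here, so the values of both are uncertain. Psme2b made up 32.5%, 30.6% and 34.4% of the reads of both genes in the controls versus 12.3%, 21.5% and 11.1% in the CKO-labelled libraries.

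Psme3, the nuclear relative of PA28, was at 9.40, 0 and 0 in the controls and at 9.74, 8.19 and 9.45 in the CKO-labelled libraries, with 1 control inside the range of the other group (difference 5.99 ± 2.86, limma adjusted p = 0.61). Psme4 (PA200), an activator linked to histone degradation, was at 5.81, 10.44 and 0 and at 8.90, 7.54 and 11.89 (difference 4.03 ± 2.70, adjusted p = 0.66 in limma). Psmf1 encodes PI31, first described as an inhibitor of the core. It had 10, 0 and 0 reads in the controls versus 5634, 567 and 3 in the CKO-labelled libraries, as log2 values 3.54, 0 and 0 against 9.82, 7.47 and 3.96. The 3 reads of the shallowest library lie above the 10 reads of the deepest control because 1 read weighs more there. In reads per 1000000 these values are 0.96 and 0.94.

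Psmc3ip had 2648 reads in CKO-labelled replicate 1 and none in the other 5.

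The calls changed with the setting, and leaving out CKO-labelled replicate 3 was among the settings that gave calls. Without that library, limma called 6 of the 49 members higher and 0 lower, against a background of 15.2% of genes higher and 0.208% lower. The 6 were Psma8, Psmc2, Psmd12, Psmf1, Psmg3 and Psmg4, or 12.2% of members, beside that background. With weights per library, limma called Psmd12 and Psma8 (background 9.93% higher), and voom on the recovered reads called Psmd12 (background 0.894% higher). Voom with weights per library, added after the data were seen, called 8 members (background 12.1% higher): Psma8, Psmb10, Psmc2, Psmd6, Psmd12, Psmf1, Psmg3 and Psmg4. None of these settings called a member lower, where the background was 0.17% with weights, 0.0852% with voom and 0.249% with both.

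Genes abundant in the deep libraries offered a comparison with the rest of the table. At 100 reads per 1000000 or more in both CKO-labelled replicates 1 and 2 there were 1285 genes, of which 29 were members. Of the 29, 1, 4 and 5 were under 1 read per 1000000 in the respective Zfp521fl/fl replicates, as were 5 in CKO-labelled replicate 3, which is 3.45%, 13.8%, 17.2% and 17.2%. Of all 1285, the shares were 6.46%, 26.1%, 15.5% and 15.02%. The share among members was below that of all 1285 genes in Zfp521fl/fl replicates 1 and 2. In the other libraries it was close to it, with 5 of 29 members. The list was chosen from the same values, so this is a description.

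The wider ubiquitin system was followed through 61 genes outside the symbol rule. None passed the test. At an unadjusted limma p under 0.05, 2 of 61 were higher (background 5.09%) and 0 lower (background 0.493%). The mean was higher for 40 of 61 (background 73.6%) and lower for 21, the median difference was 1.18 against 1.63 over all genes tested, and 4 lay above every control (background 7.17%) and 0 below (background 2.05%). Ube2l6, the conjugating enzyme of the ubiquitin-like protein ISG15, was at 3.54, 2.74 and 0 in the controls and at 11.91, 10.50 and 4.92 in the CKO-labelled libraries (limma adjusted p = 0.61). Uchl3, a deubiquitinase, was at 5.37, 2.26 and 3.69 and at 10.34, 10.14 and 6.30. Ube2e1, a conjugating enzyme, had no reads in the controls and was at 9.27, 9.26 and 0. Besides Ube2l6 and Uchl3, the genes above every control were Ubb, a polyubiquitin gene, and Uba1, the main activating enzyme. Ubb was at 13.80, 8.33 and 13.65 against 15.88, 14.05 and 13.83. As a share of reads its groups overlapped, with 13429 of 10689480 in Zfp521fl/fl replicate 1 and 3000 of 3137596 in CKO-labelled replicate 3. Uba1 was at 8.28, 9.18 and 9.81 against 10.20, 10.28 and 10.69.

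Nfe2l1 encodes NRF1, the factor that raises transcription of proteasome genes when the proteasome is blocked. It was at 7.94, 6.89 and 8.18 in the controls and at 4.90, 9.55 and 0 in the CKO-labelled libraries, with no order between the groups. Pomp, the maturation factor of the core, was at 11.33, 4.68 and 11.64 and at 11.48, 11.69 and 11.81. Sem1, a small subunit of the lid, was present in all 6 libraries, at 12.93, 14.66 and 13.65 and at 11.51, 12.69 and 13.53. Adrm1, a ubiquitin receptor, was at 6.83, 0 and 5.48 and at 9.61, 8.69 and 0. Values of these genes, chosen for their link to the proteasome after the values were seen, overlapped between the groups.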

How the data were processed

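Total RNA of sorted HSCs was purified with a column kit and libraries followed Illumina's protocols, per the labels' protocols. Bowtie, DESeq2 1.26.0 and mm9 are named, with no role, in the submitters' processing notes; how reads were counted and filtered, on which annotation and strand, is not given in the sources used here. Despite its name, FPKM, the table deposited by the authors holds log2 values, not scaled by gene length. Undoing the log2 and the pseudocount of 1 gave whole multiples of 1 step per library for 99.7% of 61139 values above 0 (tolerance 0.001 read), so reads were recovered by dividing by that step. All 213 exceptions lie in 1 block of 75 rows that holds no member.

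The test planned for normalized values was limma 3.58.1 (R 4.3.3) with a trend on the deposited log2 values, genotype only, 6 libraries, two-sided, for the 16436 genes with a mean normalized count of at least 1; all 49 members passed. A log2 difference of a gene low in 1 group depends on the pseudocount and the scaling, and can be too small or too large. That of Psmd12 was 10.98 as deposited, 14.30 with a pseudocount of 0.1 and 7.53 in reads per 1000000. Zfp521 was compared by an exact permutation test (scipy 1.17.1), and sums and shares carry no test. Coding lengths are the longest coding sequence in GENCODE M21, matched by gene identifier for 49 members; promoters are RefSeq's. Both are on GRCm38, another build than mm9, so neither says where reads were counted.

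Members and lists were chosen with earlier results of these data known. The rule for named genes gives values in every library for the catalytic subunits, activators, Psmf1, members with reads in all 6 libraries, members whose groups do not overlap and the 5 with the smallest p, up to 30 in that order, plus the 3 pathway genes with the smallest p; values of the other members were added after they were seen. Of 62 pathway entries 61 matched a row. Alternatives were a pseudocount of 0.1, other filters and scalings, weights per library, voom, a replicate block and leaving out each library; voom with weights per library and the table without the 75 rows were added after seeing the data.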

Additional observations from a re-analysis of the deposited data

How the results depend on the processing

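Depth limits the placing of low members: in the shallowest library 3 reads are already a log2 value of 3.96, against 0.57 in the deepest, so a member at a few reads is not well placed there. Under median-ratio scaling, a total of 1000000 per library, the table without the 75 rows, the other pseudocount and the other filters, the counts of calls stayed at 0 for all genes, members and pathway genes. Quantile normalization called 17 genes, 0 members and 1 pathway gene. Weights per library called 1660 genes, 2 members and 4 pathway genes, voom on recovered reads 161, 1 and 0, and voom with weights per library 2034, 8 and 5. Leaving out 1 library at a time gave 0 to 2530 genes, 0 to 6 members and 0 to 4 pathway genes, with all calls coming from the setting without replicate 3 labelled Zfp521-CKO; the cause was not tested. The members' median difference was 0.60 among genes with reads in all 6 libraries, where that of all genes was 0.032. When 1 library was left out it was 0.71 to 2.93, and that of all genes 1.12 to 2.64. Both were highest without that replicate 3. The difference of Psmb8 turned from -1.24 to 0.21 with weights per library, 1.002 with voom and 1.14 with voom and weights, and ran from -2.58 to 0.90 when 1 library was left out. That of Psmb9 turned from -0.80 to 0.61, 1.23 and 1.37, and ran from -1.84 to 1.2. That of Psme2 turned from 0.20 to -0.24 with weights per library and ran from -0.16 to 0.64. Of 19 members recomputed, the other 16 kept their direction under every alternative that gave them a value; Psmb10, Psmd12, Psmd14, Psme3, Psme4 and Psmf1 have none among genes with reads in all 6 libraries. The replicate number as a block called 0 genes and 0 members and left the members' median at 1.35. Deviations from the group means correlated by 0.031, -0.040 and 0.0055 between libraries numbered 1, 2 and 3. Between libraries of unlike number the range was -0.044 to 0.037. Values this close to 0 show no pairing by number, but they cannot tell whether equal numbers share a batch.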
